A study of Mus musculus with 2 samples.

Results

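The distal intergenic peaks are the FLAG-HLF binding sites that lie far from every protein-coding gene. HLF (hepatic leukemia factor) is a PAR bZIP transcription factor, and the chromatin immunoprecipitation sequencing (ChIP-seq) list of its sites in mouse Lin-Sca-1+c-Kit+ cells holds 3153 peaks of 400 bp on the mm10 build. A peak was counted as distal when its centre lay on chromosomes 1 to 19, inside no annotated gene of any kind, and more than 20 kb from the nearest end of a protein-coding gene. This held for 443 peaks, or 14.1% of the list (exact 95% interval 12.9 to 15.3%), which together cover 177200 bp. They make up 45.2% (42.0 to 48.3%) of the 981 peaks on these chromosomes that lie outside genes and over 1 kb from a coding gene end. A further 6 peaks on X met the same distances and were not counted. The label is met by position alone: the list gives no chromatin mark, so whether these sites are enhancers was not tested.

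The series holds 2 libraries from C57BL/6 mice aged 8 to 10 weeks, with the tissue labelled blood and the cells sorted as Lin-Sca-1+c-Kit+, the surface phenotype of a fraction rich in blood stem and progenitor cells. For the FLAG-HLF library (n = 1) the cells had been infected with the MigR1 retrovirus labelled 3xFLAG-HLF/HLF, and for the other library (n = 1) with the MigR1 empty vector. Both were cultured for 5 days with SCF, IL-7, Flt3L and IL-3 and precipitated with an anti-FLAG antibody. The peak list of the FLAG-HLF library was used, the empty-vector library was not analysed here, and the protein mapped is a tagged one introduced by virus. The file gives positions with no height, score or read count, so depth is unknown, the strength of a single peak cannot be given, and the sorted cell type cannot be checked against marker genes.

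Distal sites are where many enhancers lie. An enhancer is bound by transcription factors and acts on a promoter through looping of the chromatin, often past other genes and over long stretches of gene-poor sequence, so the nearest gene is not always its target. PAR bZIP proteins (HLF, DBP and TEF) bind DNA as dimers through a basic region and a leucine zipper, and their palindromic site TTACGTAA overlaps with the sites of the related C/EBP and NFIL3 proteins. In blood, HLF is known as a factor of haematopoietic stem cells and, fused to E2A, as a leukaemia oncoprotein.

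No genome sequence was used, but the RefSeq table of promoter windows (250 bases before to 50 after a gene's start, GRCm38.p6, which has the coordinates of mm10) reaches 8 of the distal peaks, all at starts of long noncoding RNA (lncRNA) genes. Of the 4 windows that lie wholly inside a peak, 3 are shown. All peaks were given the same width, so how much of each window was bound is not known. They are written 5′ to 3′ on the gene's strand, with capitals on each word that matches TTACNNAA or TTGCNNAA (the second is the C/EBP-like form) on either strand or differs from TTACGTAA by 1 base. Ptgs2os2 is at chr1:150164899-150165198 (minus strand), Gm51814 at chr10:19062529-19062828 (plus) and A130077B15Rik at chr10:122569842-122570141 (minus).
Ptgs2os2: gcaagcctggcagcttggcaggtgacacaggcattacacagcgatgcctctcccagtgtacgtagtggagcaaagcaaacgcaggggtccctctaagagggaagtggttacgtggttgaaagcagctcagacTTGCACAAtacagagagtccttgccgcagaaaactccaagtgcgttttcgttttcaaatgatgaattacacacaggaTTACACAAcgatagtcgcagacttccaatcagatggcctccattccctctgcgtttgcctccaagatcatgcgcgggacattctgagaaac
Gm51814: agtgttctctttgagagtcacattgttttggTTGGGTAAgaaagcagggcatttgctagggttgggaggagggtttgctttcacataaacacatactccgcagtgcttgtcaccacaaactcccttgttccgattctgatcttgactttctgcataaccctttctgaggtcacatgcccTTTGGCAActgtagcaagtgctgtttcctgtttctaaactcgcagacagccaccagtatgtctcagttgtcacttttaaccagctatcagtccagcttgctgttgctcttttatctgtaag
A130077B15Rik: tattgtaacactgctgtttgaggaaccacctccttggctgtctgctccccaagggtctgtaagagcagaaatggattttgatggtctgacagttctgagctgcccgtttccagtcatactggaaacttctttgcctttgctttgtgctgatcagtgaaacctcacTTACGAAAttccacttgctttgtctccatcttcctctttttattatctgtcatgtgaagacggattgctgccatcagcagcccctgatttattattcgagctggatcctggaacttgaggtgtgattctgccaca

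The Ptgs2os2 window holds 2 such words, TTGCACAA centred 12 bp and TTACACAA 64 bp from the peak centre. This peak lies 102 bp from the start of the lncRNA and 56.8 kb from Ptgs2, which encodes the inducible prostaglandin synthase COX-2. In A130077B15Rik, TTACGAAA lies 25 bp from the centre of a peak 107 kb from Ppm1h, a protein phosphatase gene. In Gm51814, TTTGGCAA and TTGGGTAA lie 29 and 118 bp from the centre, and the peak is 47.3 kb from Tnfaip3, the gene of the NF-kB inhibitor A20. Each of the 4 windows wholly inside a peak, the one not shown included, holds at least 1 word, and the word nearest to the centre lies between 12 and 74 bp from it.

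The other 4 windows overlap their peak in part, by 30 to 197 bp. LOC115489488, 25.5 kb from Top1, holds TTACGTCA outside the overlap, and Gm34777, 30.5 kb from Dusp6, holds TTCTGTAA outside it, while Gm36884 and Gm41309 hold none of these words. Counted over the 8 windows, 4 (50.0%, 15.7 to 84.3%) hold TTACNNAA, against 9.08% of the 31396 promoter windows of chromosomes 1 to 19 and 30.9% (24.8 to 37.5%) of the 217 windows that overlap any other peak. TTGCNNAA is in 3 of the 8 (37.5%, 8.52 to 75.5%), against 10.9% of all windows and 30% of those at other peaks. TTACGTAA with at most 1 mismatch, which overlaps with TTACNNAA, is in 2 of the 8 (25%, 3.19 to 65.1%), against 3.84% and 17.1%. The exact TTACGTAA is in none of the 8, which allows a share of up to 36.9%, and none of the 217, which allows 1.69%, and in 34 of all windows (0.108%). The 4 bases TTAC alone are in 6 of the 8 and in 66.2% of all windows. With 8 windows the intervals are wide and take in the shares at the other peaks. The median GC content was 46.7% in the 8 windows, 58% in those at other peaks and 53% in windows at no peak. The 8 windows are all at lncRNA starts, since by the rule no distal peak reaches the start of a coding gene. The comparison windows were not limited to that kind of gene. The parts of gene kind and base content in the motif shares, and of gene kind in the GC content, were not tested. A match is a description of letters, and the sequence of the remaining distal peaks was not read.

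The distal peaks thinned out steadily with distance from genes. The median distance to the nearest coding gene end was 54.0 kb (exact 95% interval of the median 47.4 to 58.3 kb), with quartiles at 32.0 and 97.1 kb and the farthest peak at 1254 kb. Between 20 and 50 kb lay 209 peaks (47.2%), between 50 and 100 kb 125 (28.2%), between 100 and 200 kb 58 (13.1%), between 200 and 500 kb 40 (9.03%) and beyond 500 kb 11 (2.48%).

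**Figure D1:**
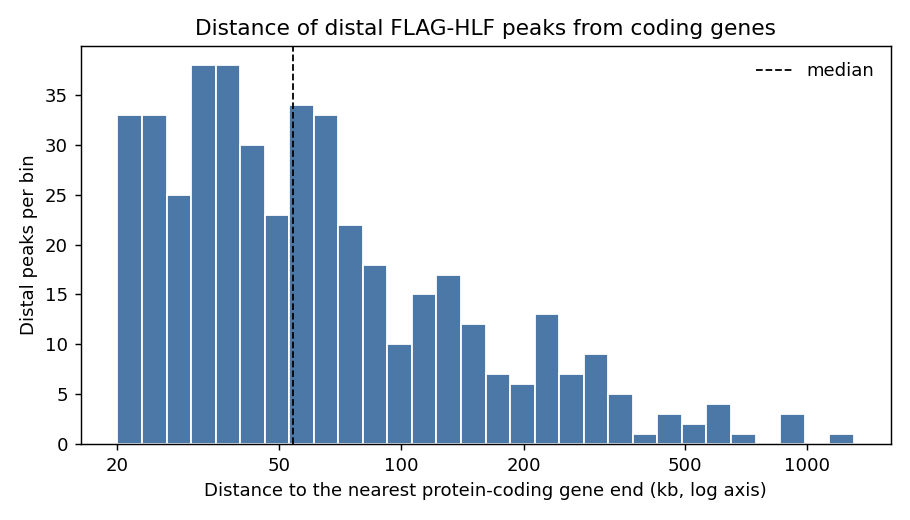
Number of distal peaks by distance from the peak centre to the nearest protein-coding gene end (kb, log axis), 443 peaks in 1 library. Bars count peaks per bin and the dashed line is the median of 54.0 kb; counts are high up to about 100 kb and the farthest peak is at 1254 kb.

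Most sequence outside genes lies far from them, so the counts were set against the space in which a distal peak could lie. That space is 897 Mb, or 37.3% of the annotated span of chromosomes 1 to 19, and holds 0.494 peaks per Mb (exact Poisson 95% interval 0.449 to 0.542). The density was 1.2 per Mb (1.04 to 1.37) at 20 to 50 kb and 0.837 (0.696 to 0.997) at 50 to 100 kb. It was 0.346 (0.262 to 0.447) at 100 to 200 kb, 0.179 (0.128 to 0.244) at 200 to 500 kb and 0.0606 (0.0302 to 0.108) beyond 500 kb. No interval of one distance class overlaps with that of the next. For reference, intergenic sequence 1 to 20 kb from coding genes held 1.87 peaks per Mb (1.71 to 2.03) and coding gene bodies 1.76 (1.68 to 1.85). Peaks of 1 library are not replicates, so these intervals cover counting error only, and no test was run between the classes. The space includes assembly gaps and repeats in which reads cannot be placed, which were not removed.

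Density also fell with distance inside the longest gaps. A gap here is the sequence between neighbouring protein-coding genes, and only a gap over 40 kb can hold a distal peak. The 585 gaps over 500 kb held 109 distal peaks. Their density was 0.574 per Mb (0.335 to 0.920) at 20 to 50 kb from a gene end, 0.364 (0.216 to 0.575) at 50 to 100 kb, 0.239 (0.153 to 0.355) at 100 to 200 kb, 0.179 (0.128 to 0.245) at 200 to 500 kb and 0.0606 (0.0303 to 0.108) beyond. Up to 100 kb from a gene end, the long gaps were less dense than the same distances over all gaps. Neighbouring classes overlap in their intervals except the last pair. That pair is nearly shared with the series over all distal space. Both hold the same 11 peaks beyond 500 kb, and 39 of the 40 peaks at 200 to 500 kb lie in the long gaps. The fall beyond 200 kb is therefore not a second observation.

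**Figure D2:**
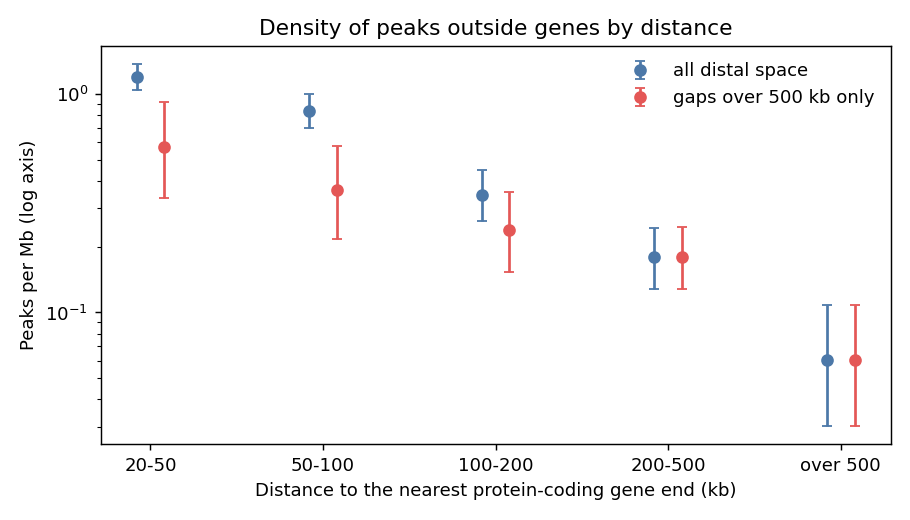
Distal peaks per Mb (log axis) by distance from the nearest coding gene end, over all distal space and over gaps longer than 500 kb alone; points are 1 library and bars are exact Poisson 95% intervals. Density falls from 1.2 to 0.0606 per Mb over all space and from 0.574 to 0.0606 in the long gaps. Both points beyond 500 kb rest on the same 11 peaks.

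The gaps were also grouped by length. Of 5283 gaps over 40 kb, 355 (6.72%, 6.06 to 7.43%) held at least 1 distal peak, and 1 more peak lay beyond the last coding gene of its chromosome. Gaps with a distal peak had a median length of 189 kb, against 89.1 kb for those without. A longer gap has more space over 20 kb from its ends. This difference, and the rise in the shares that follow, are thus partly built in by the limit. A distal peak was found in 2.57% (2.01 to 3.22%) of gaps of 40 to 100 kb, in 10.4% to 12.1% of the 3 classes between 100 and 1000 kb, and in 15.4% (11.2 to 20.6%) of gaps over 1000 kb. Per Mb of distal space, however, the density fell from 1.64 (1.31 to 2.02) in gaps of 40 to 100 kb and 1.52 (1.27 to 1.80) at 100 to 200 kb to 0.649 (0.536 to 0.780) at 200 to 500 kb. It was 0.305 (0.232 to 0.395) at 500 to 1000 kb and 0.131 (0.0978 to 0.173) in the 246 gaps over 1000 kb.

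The 10 most distant peaks lie in gene deserts. The farthest, at chr2:46370921-46371320, is 1254 kb from Zeb2, a zinc finger repressor needed in blood stem cells, in a gap of 3697 kb. The peak at chr6:10186222-10186621 is 937 kb from the neuronal gene Nxph1. The peak at chr11:25099966-25100365 lies 927 kb from Bcl11a, a transcription factor of B lymphoid and erythroid cells, and the peak at chr1:148904064-148904463 lies 925 kb from Pla2g4a, which encodes a phospholipase that releases arachidonic acid. The others, at 539 to 690 kb, included peaks with Diaph3, Sall1, Abca13, Cdh12 and Nox3 as the nearest coding gene. Of the 10, 9 had no other peak of the list within 500 kb. The exception was the one next to Nox3, with a neighbour at 350 kb. These 10 were chosen as the most remote, where density was lowest (0.0606 per Mb beyond 500 kb), so their isolation is not an independent trait. The same share over all distal peaks was not counted. The median distance from a distal peak to the next peak of the list was 115 kb.

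Just inside the limit of 20 kb were peaks at 20012 bp from Chd7, 20079 bp from Actr2, 20124 bp from Clic4, 20201 bp from Calml3 and 20237 bp from Mdm1. Just outside it were intergenic peaks at 19928 bp from Arhgap40, 19836 bp from Mrps33, 19764 bp from Atp8b4, 19630 bp from B4galt1 and 19565 bp from Glt28d2. The distances run on without a break across the limit.

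Most gaps held a solitary distal peak. A single one was found in 287 gaps, 2 in 53, 3 in 11 and 4 in 4. The 15 gaps with 3 or more hold 49 peaks.

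Of the 4 gaps with 4 peaks, the one after Cxcr4 lies next to the receptor that holds stem cells in the bone marrow by binding CXCL12. These peaks were 23.0, 50.1, 195 and 240 kb from Cxcr4 on the side of its 5′ end, in a gap of 681 kb that ends at Thsd7b. A further distal peak lay on the other side, 141 kb from the 3′ end of Cxcr4 and 30.3 kb from Dars. The Rap1b to Mdm1 gap is bordered by Rap1b, the gene of a small GTPase of integrin activation. In it, 3 peaks lay 20.2, 37.9 and 58.3 kb from Mdm1 and the fourth 107 kb from Rap1b. St3gal1, a sialyltransferase gene, had 3 peaks at 244, 286 and 305 kb, and the fourth of that gap was 350 kb from Zfat, which encodes a zinc finger protein of lymphocytes. The gap of 1709 kb between Agtr1b and Tbl1xr1, a corepressor subunit gene, had 2 peaks at 78.6 and 87.9 kb and 1 at 441 kb from Tbl1xr1, and 1 at 459 kb from Agtr1b. Neither Cxcr4 nor Tbl1xr1 nor Agtr1b had a peak of the list in its body or within 20 kb.

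In the gap between Tmco5 and Spred1, an inhibitor of MAP kinase signalling, Spred1 had 1 at 27.8 kb from its 5′ end, and the other 2 peaks lay 146 and 154 kb from it and nearer to Tmco5, at 82.7 and 74.4 kb. Map3k1, a kinase upstream of JNK and ERK, had 2 at 79.5 and 112 kb from its 5′ end, and Ankrd55, at the far side, had 1 at 29.6 kb. The Dusp10 to Hlx gap lies between a MAP kinase phosphatase gene and a homeobox gene expressed in haematopoietic progenitors, and its peaks lay 61.6, 236 and 249 kb from Hlx and 403 to 590 kb from Dusp10.

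The other gaps with 3 peaks were of several kinds. The shortest, 72.4 kb between the galactosyltransferase gene B4galt5 and the sodium-proton exchanger gene Slc9a8, had all 3 within 13.4 kb, and the 5′ ends of both genes face it. Hk2, which encodes hexokinase, had 3 at 69.6 to 97.7 kb from its 5′ end, and these were nearer to Sema4f, at 39.8 to 67.8 kb. Foxo1, a transcription factor needed for B cell development, had 1 at 218 kb from its 3′ end, while the other 2 of its gap were 101 and 110 kb from Cog6. Chd7, a chromatin remodeller gene, had peaks at 20012 bp and 59.4 kb, with the third of the gap 34.2 kb from Clvs1. In the gap between Pde7b and Ahi1 there was 1 peak 28 kb from Pde7b and 2 at 69.4 and 97.1 kb from Ahi1. The Kif2a to Zswim6 gap had peaks 37.4 and 285 kb from Kif2a and 128 kb from Zswim6, and the Plekhb2 to Hs6st1 gap had 3 spaced 47.2 and 48.0 kb apart at 207 to 303 kb from Hs6st1.

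**Figure D3:**
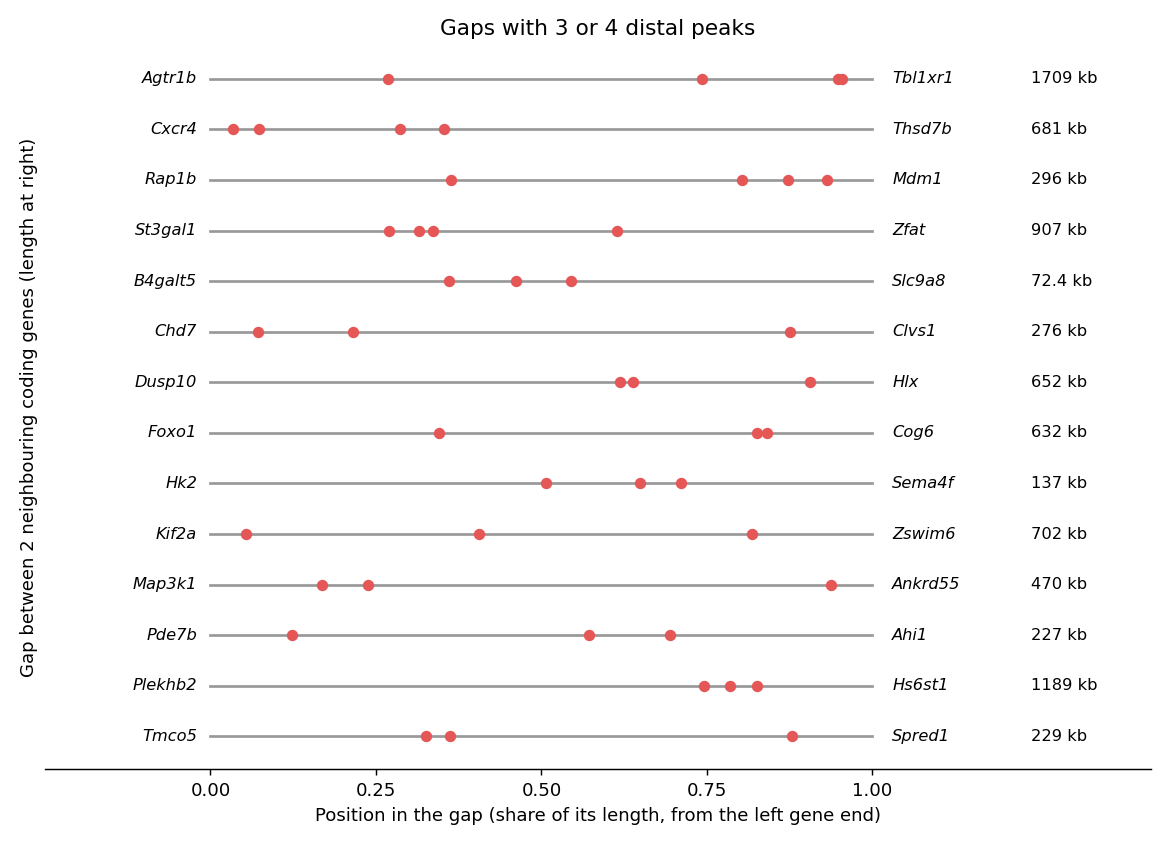
All but 1 of the 15 gaps between neighbouring coding genes that hold 3 or 4 distal peaks, each drawn to its own length (kb, at right) with points at the peak centres as a share of the gap from the left gene end. Peaks crowd within 13.4 kb in the B4galt5 to Slc9a8 gap and spread over 1172 kb in the Agtr1b to Tbl1xr1 gap.

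The flanking genes were then read against lists of blood cell and control genes. These lists were written with earlier results of these data known, so their shares are descriptions. A gene flanks a distal peak when it is the nearest coding gene on either side. Of 20560 coding genes on these chromosomes, 692 (3.37%) flank at least 1 distal peak, and of the 8070 that border a gap over 40 kb, and so could flank one, the same 692 are 8.57%. In 6 lists of blood cell genes, 19 of the 109 members that border such a gap flanked a distal peak (17.4%, exact 95% interval 10.8 to 25.9%). They account for 27 of the 443 peaks (6.09%, 4.05 to 8.74%). The gap lengths of list genes were not matched to those of other genes, so this share is a description. Over all 11 lists, 51 distal peaks lay next to a list gene, and that gene was the nearest for 27.0 of them.

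Granulocyte and monocyte genes had 8 of 27 (29.6%, 13.8 to 50.2%). Tlr2 and Tlr4, which encode receptors for bacterial products, had a distal peak at 21.3 kb (from the 5′ end of Tlr2) and 30.7 kb. Il1b, an inflammatory cytokine gene, had 1 at 26.3 kb, between Il1b and Il1a. Trib1, a pseudokinase that directs C/EBP alpha to degradation, had peaks at 71.3 and 208 kb, the second nearer to 4933412E24Rik (150 kb). Among the transcription factors, Klf4 had 1 at 123 kb, Cebpb 1 at 143 kb and Maf 1 at 147 kb. The Cebpb peak was nearer to Ptpn1 (97 kb). Maf is a regulator of macrophages, Klf4 of monocytes and Cebpb of granulocytes and macrophages. Trib1 had 4 and Il1b 2 peaks in the body or within 20 kb as well.

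Stem and progenitor regulators had 5 of 34 (14.7%, 4.95 to 31.1%), and B lineage genes 4 of 13 (30.8%, 9.09 to 61.4%). Kit, the receptor of stem cell factor, had peaks at 74.3 and 170 kb from its 3′ end, in the gap to Kdr. The second was nearer to Kdr (106 kb). Gata3, a transcription factor of T cells and stem cells, had 2 at 54.3 and 107 kb from its 3′ end, and Ikzf2, the gene of Helios, had 1 at 32.0 kb. Named after their values were seen, Runx1 had 1 at 381 kb, nearer to Setd4 (376 kb), and Myc had 2 at 1658 and 1715 kb. Both Myc peaks were nearer to Gsdmc (128 and 71.1 kb). A distant enhancer cluster is known to act on Myc in blood stem cells from within this gene desert, and whether these peaks fall in it was not tested. Besides Foxo1 and Bcl11a, which had a second distal peak at 197 kb, the B lineage genes were Syk, a kinase of B cell receptor signalling, with 1 at 55.2 kb, and Cd93, with 2 at 45.5 and 156 kb. The second Cd93 peak was nearer to Nxt1 (72.9 kb).

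The remaining blood lists had few. T, NK and innate lymphoid genes had 2 of 22 (9.09%, 1.12 to 29.2%), Gata3 and Tox. Megakaryocyte and erythroid genes had 2 of 6 (33.3%, 4.33 to 77.7%), Bcl11a and Cd9, a tetraspanin with a distal peak at 34.4 kb and 3 peaks of its own. Mast cell, basophil, eosinophil and dendritic cell genes had 1 of 15 (6.67%, 0.169 to 31.9%), Kit.

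Outside these, the list headed cell cycle and apoptosis had 6 of 15 (40%, 16.3 to 67.7%). Of all genes that could flank a distal peak, 8.57% did. Lmo4 is counted among the 6 because the list holds it. Bcl2, the founding antiapoptotic gene, had 1 at 20.4 kb from its 3′ end. Ccnd2, encoding cyclin D2, had 2 at 84.6 and 102 kb. Cdkn2a had 1 at 62.0 kb, Lmo4 1 at 77.6 kb, the death receptor gene Fas 1 at 79.7 kb and the proapoptotic gene Bcl2l11 1 at 305 kb, and those near Cdkn2a, Fas and Bcl2l11 were closer to the gene on the other side. Of cytokine, receptor and JAK-STAT genes, 5 of 20 flanked a distal peak (25%, 8.66 to 49.1%): Cxcr4, Ifngr1 (32.0 and 151 kb from its 5′ end), Il10ra (25.4 kb), Il3ra (290 kb) and Il12b (459 kb). The last 3 peaks were nearer to Tmprss13, Slc4a7 and Adra1b, and the Ifngr1 peak at 151 kb was nearer to Olig3 (82.1 kb). Of the clock and PAR bZIP genes, 2 of 12 flanked a distal peak (16.7%, 2.09 to 48.4%), the clock repressor gene Bhlhe40 at 86.6 kb and Arntl, which encodes BMAL1, at 93.3 kb from its 5′ end. The Bhlhe40 peak was nearer to Arl8b (29.6 kb).

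The control lists gave shares below the 17.4% of the blood lists together, with intervals that include it. Single blood lists lay on both sides of 17.4%. Below it were stem and progenitor (14.7%), T, NK and innate lymphoid (9.09%) and mast cell, basophil, eosinophil and dendritic cell genes (6.67%), and the rest were above. The highest share of any list, 40%, was that of the cell cycle and apoptosis list, with Lmo4 counted. Developmental transcription factors of other tissues, which often stand in gene deserts, had 5 of 52 (9.62%, 3.20 to 21.0%), namely Sox5, Pou4f1, Sall1, Zic1 and Sox2, at 120 to 1036 kb. Among these, only Sall1 was the nearest coding gene of its peak. Liver genes had 0 of 9, which allows a share of up to 33.6%. The intervals of single lists are wide. Those of the granulocyte and monocyte, B lineage, cytokine, and cell cycle and apoptosis lists lie above 8.57% while the others include it. Because the lists were not drawn up independently of these data, no conclusion about any list is drawn from this.

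**Figure D4:**
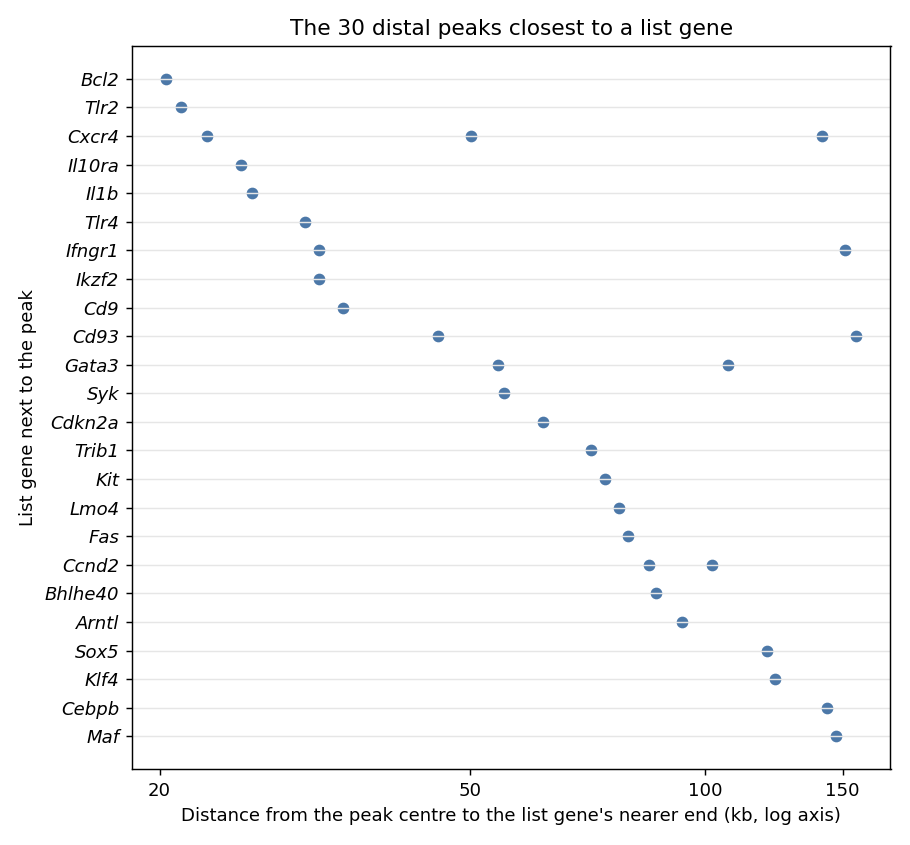
The 30 distal peaks closest to a gene of the lists, by distance from the peak centre to the nearer end of that gene (kb, log axis); each point is 1 peak. Bcl2 and Tlr2 are closest at 20.4 and 21.3 kb, and Cxcr4 has 3 peaks in this range.

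Flanking genes were also examined for peaks of their own. Of all coding genes on chromosomes 1 to 19, 3272 (15.9%) had a peak of the list in the body or within 20 kb, a count to which the distal peak itself cannot add. The share was 162 of 692 (23.4%, 20.3 to 26.7%) among genes flanking a distal peak and 1033 of 7378 (14.0%, 13.2 to 14.8%) among genes that border only gaps with no distal peak. The flanking genes were longer, with a median length of 41.6 kb against 27.9 kb, and the part of length in the difference was not tested. Seen from the peaks, 96 of 443 (21.7%, 17.9 to 25.8%) had a nearest gene with its own peak. Counted once each, 83 of the 377 nearest genes (22%, 17.9 to 26.5%) had one, against 15.9% of all coding genes. Genes with none were thus the majority in both sets.

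The RefSeq promoter table gives a strand for 16457 of the coding genes, and for the nearest gene of 334 distal peaks. The genes without a strand are not spread evenly, and no gene flanking a chromosome 18 distal peak has one. The table may therefore lack whole regions. How many distal peaks at gene starts the search of promoter windows missed for this reason was not counted. The 5′ end faced the peak in 185 (55.4%, 49.9 to 60.8%) and the 3′ end in 149 (44.6%, 39.2 to 50.1%). In gaps flanked by 5′ ends on both sides the density was 0.594 per Mb (0.479 to 0.729), in gaps flanked by 3′ ends 0.413 (0.309 to 0.540) and in gaps with 1 of each 0.447 (0.376 to 0.528). Of the 284 peaks with both strands known, 92 (32.4%, 27 to 38.2%) lay in gaps flanked by 5′ ends on both sides, which hold 26.1% of the distal space in gaps of known strands. No test of a preference for either end was run.

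Noncoding genes lay near some distal peaks. The nearest noncoding gene end of any kind was a median of 20.2 kb away. Per Mb of distal space, density was 1.49 (0.982 to 2.17) within 1 kb of a noncoding gene, 0.778 (0.580 to 1.02) at 1 to 5 kb and 0.764 (0.644 to 0.9) at 5 to 20 kb. It fell to 0.450 (0.387 to 0.521) at 20 to 100 kb and 0.185 (0.134 to 0.251) beyond 100 kb. An end of an lncRNA gene lay within 1 kb of 24 peaks (5.42%, 3.5 to 7.95%), an end of a pseudogene within 1 kb of 2. The closest were Gm31711, 33 bp from a peak in the gap between Inhba and Sugct, and A130077B15Rik at 56 bp. The parts of coding and of noncoding distance were not separated.

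Within 25 kb of a microRNA gene lay 5 distal peaks (1.13%, 0.367 to 2.61%). The share of distal space this close to one was not measured, so whether this is few or many is not known. The mature sequences are shown for Mir146 and Mir9-3, which have both arms in the RefSeq table (GRCm38.p6), with the seed, bases 2 to 8, in capitals. Gm51285, at the Mir9-3 locus, also has both arms there, and these are not shown. Mir146, whose product restrains NF-kB signalling in blood cells, is at 21.2 kb from the peak at chr11:43352997-43353396, which is 67.0 kb from its nearest coding gene, Pttg1. Mir9-3, of a neural microRNA family, is at 5.86 kb from the peak at chr7:79499208-79499607, and this peak is 618 bp from its host gene Mir9-3hg and 31.5 kb from Polg.
mmu-miR-146a-5p: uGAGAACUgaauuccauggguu
mmu-miR-146a-3p: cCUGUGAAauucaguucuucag
mmu-miR-9-5p: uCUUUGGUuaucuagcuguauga
mmu-miR-9-3p: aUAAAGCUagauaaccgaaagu
The 4 seeds differ from each other. The other microRNA genes within 25 kb were Mir133a-2 (12.7 and 19.4 kb from 2 peaks between Gata5 and Slco4a1), Mir1a-1 (22.1 kb from the first of these), Mir124a-1 and Mir3078 (21.9 and 22.4 kb from 1 peak), and Gm51285, which lies on the opposite strand at Mir9-3.

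The share of distal peaks with a close neighbour lay within the range of the other classes of position. Another peak of the list lay within 25 kb of 87 of the 443 (19.6%, 16.0 to 23.6%). The shares in the other classes of position ran from 18.6% (14.6 to 23.1%) at coding gene ends to 23.2% (19.7 to 27.0%) in intergenic sequence 1 to 20 kb from genes, with intervals that overlap. The nearest neighbour was itself distal for 66 of the 87 and inside a noncoding gene for 13. It was in intergenic sequence closer to a gene for 7 and in a gene body for 1. The limit of 20 kb largely sets this split. A peak over 20 kb inside a coding gene cannot lie within 25 kb of a distal peak. Other peaks in or at the ends of coding genes can do so only in a narrow range of distances. The 66 formed 31 groups, 27 pairs and 4 groups of 3, the latter including those in the B4galt5, Hk2 and Rap1b gaps. Among the tightest pairs were those with centres 0.525 kb apart between Mchr1 and Slc25a17 and 0.561 kb apart at 350 kb from Klf6, a zinc finger transcription factor gene. The share with a neighbour within 25 kb was lower among the most remote peaks, at 14.1% of those over 50 kb and 9.17% of those over 100 kb from a coding gene end.

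Chromosomes differed in their distal density. It was highest per Mb of distal space on chromosome 10 (38 peaks, 0.796, 0.563 to 1.09), followed by chromosome 13 (35 peaks, 0.730, 0.508 to 1.02). The chromosome 10 peaks include those near Rap1b, Ahi1, Ifngr1, Tnfaip3 and Dusp6. The lowest was chromosome 8 (9 peaks, 0.177, 0.0810 to 0.336), followed by chromosome 12 (15 peaks, 0.299, 0.167 to 0.493), and the upper bound of both lies below the 0.494 of all 19 chromosomes. As a share of each chromosome's own peaks, distal ones ranged from 6.34% (2.94 to 11.7%) on chromosome 8 and 6.48% (2.65 to 12.9%) on 19 to 24.0% (17.3 to 31.7%) on 13. Chromosome 11 had a low share, 7.38% (4.43 to 11.4%), with a density of 0.517 (0.306 to 0.817) near that of all chromosomes.

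**Figure D5:**
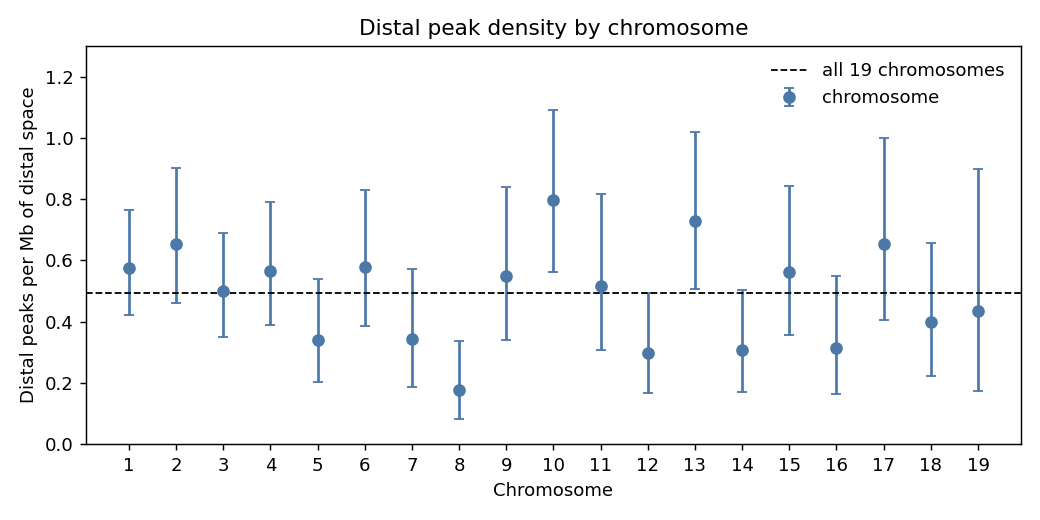
Distal peaks per Mb of distal space on each of chromosomes 1 to 19, with exact Poisson 95% intervals as bars; the dashed line is the density over all 19 (0.494). Chromosomes 8 (0.177) and 12 (0.299) lie below the line with their whole interval, and chromosomes 10 (0.796) and 13 (0.730) lie above it with theirs.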

How the data were processed

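The 1 deposited file used holds peak intervals of the FLAG-HLF library in 3 columns (chromosome, start, end), with no other deposited value. Per the submitters' processing notes, Bowtie2 2.0.6, MACS2 2.0.10 and mm10 were used, in unstated roles. How peaks were thresholded, whether the control library entered the calling, and how all came to be 400 bp wide: not given in the sources used here. Equal widths hide how far enrichment reached, so the interval's centre (start + 200) was taken as its position. Library depth is unknown.

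Genes came from a RefSeq table of GRCm38.p6, which shares its chromosome coordinates with mm10. Of 49554 rows on chromosomes 1 to 19 and X, 340 with a start below 3 Mb, which carry scaffold coordinates, were dropped. Distal space is sequence outside every gene and over 20 kb from coding genes, between the first and last annotated gene of a chromosome. Strand was taken from the RefSeq promoter table and motifs were searched on both strands there. Shares carry exact Clopper-Pearson and densities exact Poisson 95% intervals (Python 3.11.15, pandas 2.3.3, SciPy 1.17.1), which treat peaks as independent. With 1 library, no test was run. The assignment of peaks to classes was tested on simulated data.

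The members and the 11 gene lists (376 symbols) were chosen with earlier results of these data known. Named regions are gaps with 3 or more distal peaks (the rule's limit of 10 fell within ties, so all were named), the 10 farthest peaks, the 30 peaks nearest to list genes and the 5 on each side of the limit. Other names were chosen after their values were seen, and a few named by these rules are not reported here. GC content and motif shares over whole peaks were planned and not run, for lack of a genome.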

Additional observations from a re-analysis of the deposited data

How the results depend on the processing

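Of 17 alternatives, 9 left their result within its interval or, for counts, within 1.5 times, and 8 did not. The number of distal peaks was 622 with a limit of 10 kb, 592 when only coding genes barred a peak, 440 measured from the peak edge, 437 with peaks merged within 1 kb and 449 with X added. It fell to 234 with a limit of 50 kb and to 109 with 100 kb, by the construction of the limit. The median distance of 54.0 kb became 54.3 kb with merged peaks and 54.4 kb with coding genes alone. The share with another peak within 25 kb (19.6%) became 17.4% with merged peaks, 10.8% for a distance of 10 kb and 32.5% for 50 kb, again by construction, and 14.1% and 9.17% for members over 50 and 100 kb from a coding gene end. The share of distal peaks next to a blood list gene (6.09%) was 3.61% when only the nearest gene counted, 8.55% over 50 kb and 11.9% over 100 kb. The cause of these last shifts with distance was not tested. Alternatives on motif and GC content were not run, because no genome was used. No paired analysis was possible because 1 library was analysed, which also leaves no replicate to omit.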

Other observations

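Among the genes that flank a distal peak, 5 have a Dusp symbol, of 11 such genes that border a gap over 40 kb. They encode dual-specificity phosphatases, several of which switch off MAP kinases, and were picked after their values were seen, so the count supports nothing about the family. Dusp1 had 1 at 25.6 kb, Dusp6 1 at 30.5 kb, Dusp22 1 at 81.2 kb and Dusp4 1 at 591 kb, beside the 3 in the Dusp10 gap. The Dusp22 and Dusp4 peaks were nearer to Uqcrfs1 (33.6 kb) and Saraf (45.4 kb). The Dusp1, Dusp4 and Dusp6 peaks each lay within 1 kb of an lncRNA end, at 813, 603 and 359 bp from Gm34606, Gm29243 and Gm34777.

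Tnfaip3, which encodes A20 and was named after its values were seen, had distal peaks on both sides. A pair 1.84 kb apart lay at 57.4 and 59.2 kb towards Perp, and the peak at the Gm51814 start lay at 47.3 kb towards Olig3. Tnfaip3 itself had no peak of the list in its body or within 20 kb.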
